A study of Mus musculus with 10 samples.

Results

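Astrocytes are glial cells that take up glutamate and potassium released by neurons, supply neurons with glutamine and lipids, and are joined to each other by gap junctions. They arise from the same progenitors as cortical neurons, late in embryonic life, so that a dissociated embryonic cortex gives a culture of neurons with some astrocyte-lineage cells. A set of 31 genes that astrocytes are known to express was read in such cultures, out of 22180 genes measured. Each gene was represented by its brightest probe set with a single symbol, a probe set being the group of probes that reads 1 transcript, and all 31 genes had one. The choice of a probe set rested on its mean over all arrays and was open for 4 genes only (Glul, Dio2, Cst3 and Hes5). The set was drawn up with earlier results of these arrays known, so its differences between genotypes are not independent evidence of a direction.

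RNA came from cortical neurons of embryos at embryonic day 14.5 to 15.5, grown in Neurobasal medium with B27 supplement, and was hybridised to Affymetrix mouse arrays after 12 hours of treatment that began at 7 days in vitro. The groups were ATF4-deficient cultures with 5 µM sodium arsenite (labelled KO-ARS, 2 arrays), ATF4-deficient cultures with vehicle (KO-Ctrl, 2 arrays), wildtype cultures with 5 µM sodium arsenite (WT-ARS, 4 arrays) and wildtype cultures with vehicle (WT-Ctrl, 2 arrays). ATF4 is a transcription factor whose translation rises in the integrated stress response, and sodium arsenite is a trivalent arsenic compound that causes oxidative stress. The labels do not give the strain, the part of Atf4 that was removed, whether litters or embryos were pooled, or any agent against dividing cells. All values below are log2 expression values after robust multiarray averaging (RMA) by the authors, and the level of one probe set is not set against that of another.

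Array medians lay between 6.75 and 6.81, and pairs of arrays within a group correlated at r = 0.980 to 0.990 across probe sets, which are not independent replicates. Atf4 itself read 7.54 and 7.70 in ATF4-deficient arsenite, 7.65 and 7.48 in ATF4-deficient vehicle, 9.43, 9.80, 9.64 and 9.91 in wildtype arsenite and 9.09 and 9.56 in wildtype vehicle arrays, with no overlap between genotypes. All 16 neuron markers, among them the tubulin gene Tubb3 and the synaptic gene Snap25, were brighter in every group than a dim reference of 6.63, the 90th percentile of olfactory and vomeronasal receptor genes, which cortical cells are not known to use. Of the astrocyte-expressed genes, 26 had a mean above it, and Gjb6, S100b, Id3, Dio2 and Fgfr3 lay below, close to background, which can mask a change.

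**Figure D1:**
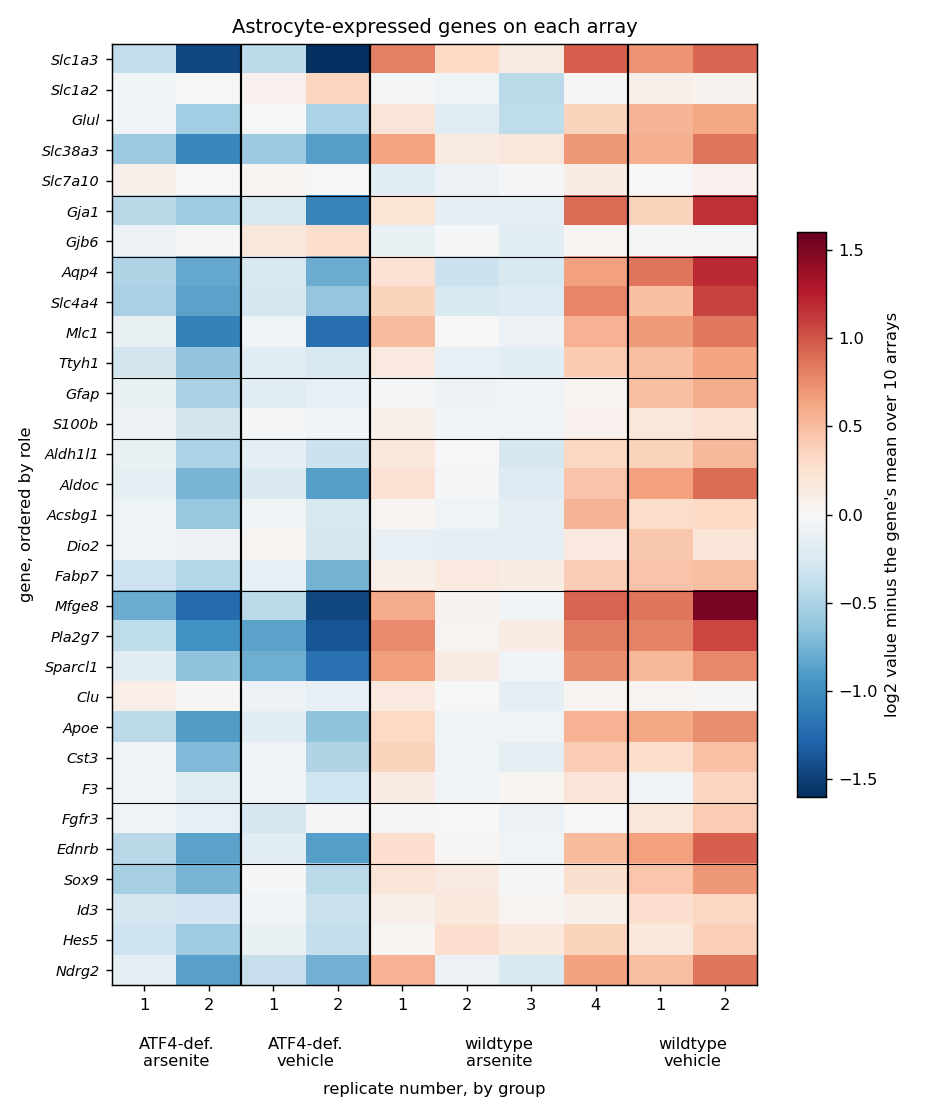
Heat map of the 31 astrocyte-expressed genes (rows, grouped by role and separated by thin lines) on the 10 arrays (columns, by group and replicate number). Colour gives the log2 value minus the gene's mean over all 10 arrays, and most genes are below their mean on the 4 ATF4-deficient arrays and above it on both wildtype vehicle arrays.

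Within groups the genes shifted together from array to array. The mean of the 31 genes, each centred on its own mean over the 10 arrays, was -0.24 and -0.59 in ATF4-deficient arsenite, -0.19 and -0.56 in ATF4-deficient vehicle, 0.24, -0.01, -0.09 and 0.42 in wildtype arsenite and 0.41 and 0.62 in wildtype vehicle arrays. ATF4-deficient and wildtype arrays did not overlap on this mean. In the ATF4-deficient vehicle group, 27 of 31 genes were higher in replicate 1 than in replicate 2, against 52.3% of all genes, and in the ATF4-deficient arsenite group 29 of 31 were, against 58.6% of all genes. Of the wildtype vehicle arrays, replicate 1 was the higher for 3 of the 31 genes and for 54.2% of all genes.

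Wildtype arsenite arrays showed the same joint shift. Replicate 4 was the highest of the 4 arrays for 27 of the 31 genes, against 27.99% of all genes, and replicate 3 was the lowest for 20, against 28.2% of all genes. Replicates 2 and 3, the lowest on the mean of the set, were the highest on fibroblast genes, which were singled out after their values were seen. The collagen gene Col1a1 read 7.06, 8.14, 7.93 and 7.25 in wildtype arsenite replicates 1 to 4, and the matrix gene Dcn 7.45, 8.33, 8.01 and 7.65, with Col1a2, Col3a1 and Lum likewise highest in replicates 2 and 3. The whole list of 18 vascular, mural and fibroblast markers had centred means of -0.12, 0.11, 0.08 and -0.01 on these 4 arrays, and its part in the shift of the astrocyte-expressed genes was not tested. For the 31 genes, medians, directions and calls without replicates 2 and 3 are given beside the results they change.

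The SD within groups had a median of 0.27 log2 over the 31 genes and 0.13 over all genes. It was widest for Slc1a3 (0.53), Mfge8 (0.50), Mlc1 (0.49) and Gja1 (0.48), and narrowest for Gjb6 (0.07) and S100b (0.08). This shared spread sits in every comparison below and widens the error of most of these genes. In RNA from a whole culture, fewer cells that express a gene, astrocytes or others, and less of its transcript per cell cannot be told apart.

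The comparison of ATF4-deficient with wildtype cultures under vehicle addresses the effect of genotype where no arsenite was added. Lower in ATF4-deficient cultures were Mfge8, a secreted bridge for the uptake of dying cells, Pla2g7, a secreted phospholipase that inactivates platelet-activating factor, Sparcl1, a matrix protein that astrocytes release and that promotes synapse formation, Slc38a3, a glutamine transporter, Ednrb, an endothelin receptor, and Gfap, the intermediate filament of astrocytes. Their log2 differences ranged from -2.13 to -0.69, that is 4.36-fold lower for Mfge8 and 1.61-fold lower for Gfap. Those 6 of 31 genes passed an adjusted p of 0.05 in limma (Benjamini-Hochberg adjustment over 22180 genes), 0 were higher and 25 did not pass. Over all genes 0.252% were called lower and 0.18% higher. The median difference was -0.80 log2 over the 31 genes and 0.00 over all genes, and 29 of the 31 estimates were below 0, against 48.9% of all genes.

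Among the secreted and surface proteins, Mfge8 read 8.74 and 7.71 in ATF4-deficient vehicle arrays, against 10.01 and 10.68 in wildtype vehicle arrays (difference -2.13 log2, SE 0.38, limma adjusted p = 0.0402). Pla2g7 read 5.96 and 5.43 in ATF4-deficient vehicle arrays, both under the dim reference, against 7.61 and 7.88 in wildtype vehicle arrays (-2.05 log2, SE 0.29, limma adjusted p = 0.0218). Sparcl1 read 10.29 and 9.88 in ATF4-deficient vehicle arrays, against 11.60 and 11.84 in wildtype vehicle arrays (-1.63 log2, SE 0.26, limma adjusted p = 0.0296). Both ATF4-deficient arrays were below both wildtype arrays for each of these genes, with the lower value always in ATF4-deficient replicate 2. Apoe, the lipid carrier, averaged 7.78 ± 0.34 in ATF4-deficient and 8.86 ± 0.09 in wildtype vehicle arrays (SD, n = 2 each) and did not pass in limma (adjusted p = 0.0732). The remaining secreted and surface genes were Cst3, a protease inhibitor (-0.65), F3, the tissue factor of coagulation (-0.32), and Clu, the chaperone clusterin (-0.14), none of which passed.

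Genes of transport gave 1 call. Slc38a3 read 7.77 and 7.47 in ATF4-deficient vehicle arrays, against 8.92 and 9.21 in wildtype vehicle arrays (-1.44 log2, SE 0.22, limma adjusted p = 0.0236). The glutamate transporter gene Slc1a3 had an estimate of -1.83 that did not pass (SE 0.40, limma adjusted p = 0.0817), with ATF4-deficient vehicle arrays far apart at 8.70 and 7.52, against 9.84 and 10.05 in wildtype. Its paralogue Slc1a2, the other main astrocyte glutamate transporter, read 8.02 and 8.29 in ATF4-deficient and 8.03 and 8.01 in wildtype vehicle arrays (0.14 log2, 95% interval -0.19 to 0.46). Slc1a3 and Slc1a2 were not tested against each other. Glul, which makes glutamine from glutamate, was at -0.84 and Slc7a10, a small neutral amino acid exchanger, at -0.02, and neither passed.

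The 4 genes of water, ion and volume handling all had estimates below 0, and none passed. They were the water channel gene Aqp4 (-1.55 log2, limma adjusted p = 0.057), Mlc1, a membrane protein needed for volume regulation (-1.40), the bicarbonate transporter gene Slc4a4 (-1.22) and the chloride channel gene Ttyh1 (-0.77). Of the gap junction genes, Gja1, which encodes connexin 43, had an estimate of -1.43 (95% interval -2.23 to -0.63) and Gjb6, which encodes connexin 30, of 0.26 (0.04 to 0.48). Gjb6 was the 1 gene of the 31 whose ATF4-deficient vehicle arrays lay wholly above the wildtype ones (21.2% of all genes), at 6.01 and 6.12 in ATF4-deficient against 5.797 and 5.801 in wildtype arrays, all under the dim reference.

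Gfap read 7.18 and 7.22 in ATF4-deficient vehicle arrays, against 7.83 and 7.95 in wildtype vehicle arrays (-0.69 log2, SE 0.13, limma adjusted p = 0.0473). Its ATF4-deficient arrays were close together, unlike those of Mfge8 or Slc1a3. The calcium-binding protein gene S100b was at -0.24 and did not pass. Ednrb read 8.99 and 8.29 in ATF4-deficient vehicle arrays, against 9.83 and 10.13 in wildtype vehicle arrays (-1.34 log2, SE 0.24, limma adjusted p = 0.0434), and the growth factor receptor gene Fgfr3 was at -0.44.

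None of the metabolic genes passed. Aldoc, a glycolytic aldolase of the brain, was at -1.33 log2, the fatty acid-binding protein gene Fabp7, which radial glia also express, at -0.91, the folate enzyme gene Aldh1l1 at -0.69, the acyl-CoA synthetase gene Acsbg1 at -0.47 and the deiodinase gene Dio2 at -0.42. Neither did the regulators: Ndrg2 was at -1.24, the gliogenic transcription factor gene Sox9 at -0.80 (limma adjusted p = 0.055), the Notch target gene Hes5 at -0.52 and Id3, an inhibitor of helix-loop-helix factors, at -0.51. At an unadjusted p under 0.05, 25 of the 31 genes were lower and 1 was higher, against 10.9% of all genes in either direction.

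In all, 27 of 31 genes had both ATF4-deficient vehicle arrays below both wildtype vehicle arrays, against 21.4% of all genes. The count of 6 calls was 0 without wildtype vehicle replicate 1, wildtype vehicle replicate 2 or ATF4-deficient vehicle replicate 2, and 3 without wildtype arsenite replicate 1, 2 or 3, which contribute to the spread only. It was 5 without both wildtype arsenite replicates 2 and 3, Ednrb and Gfap then missing the threshold and Aqp4 passing (limma adjusted p = 0.0573, 0.0787 and 0.0367). With only the 4 vehicle arrays in the model it was 0, and 0 of all 22180 genes were called. A fit without 1 vehicle array leaves 1 array in a group, which lowers the precision for all genes. Over all genes, 28, 27 and 42 were called lower without wildtype arsenite replicate 1, 2 or 3, against 56 with all arrays.

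**Figure D2:**
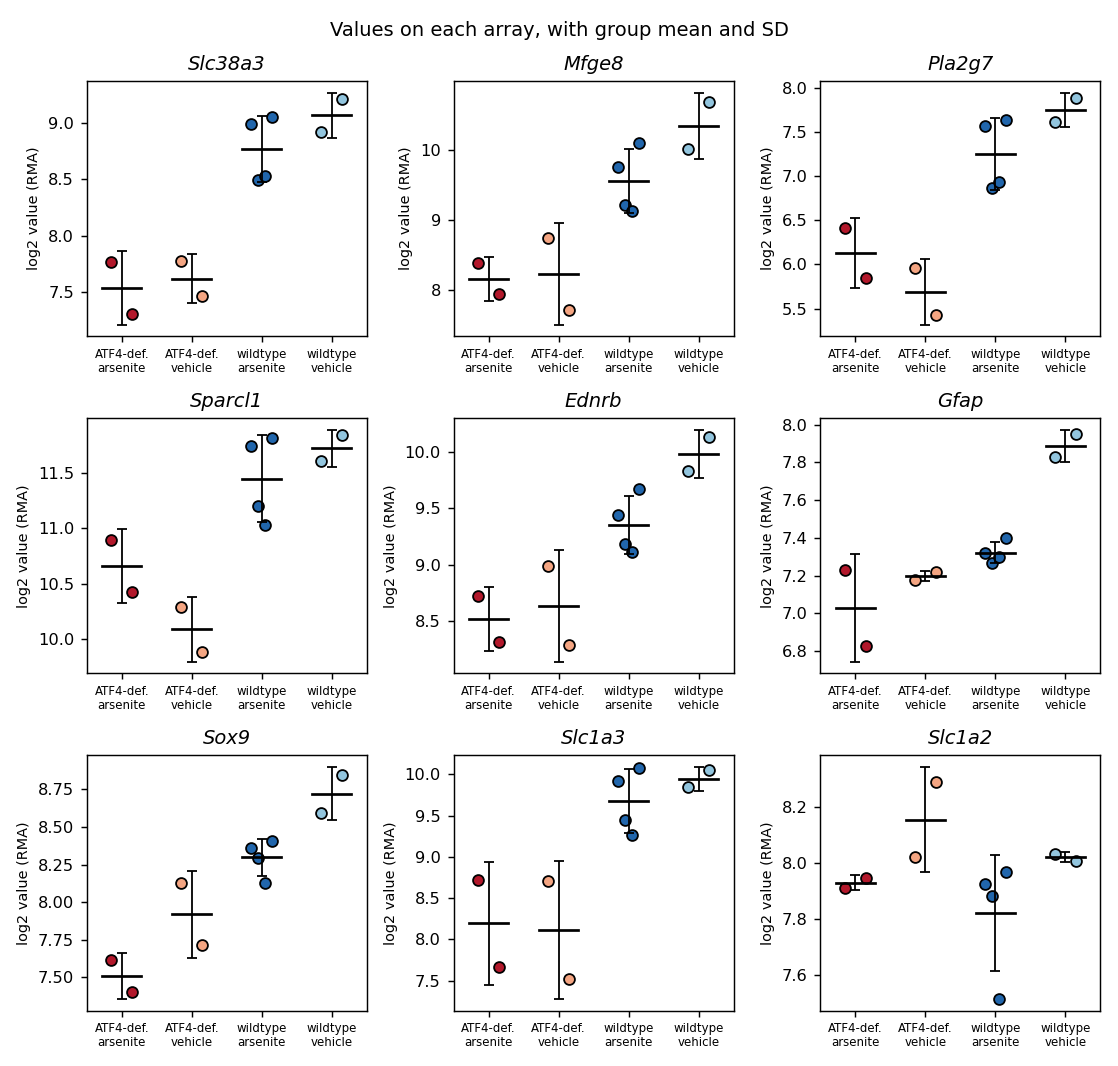
Log2 value on each array (points) for 9 astrocyte-expressed genes, with the group mean (bar) and SD (whiskers) of ATF4-deficient arsenite, ATF4-deficient vehicle, wildtype arsenite and wildtype vehicle cultures. Slc38a3, Mfge8, Pla2g7, Sparcl1 and Ednrb separate the genotypes on every array, whereas Slc1a2 does not.

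Promoter sequences are shown for 4 genes called under vehicle, to set the sequence at their starts beside the joint shift. They are RefSeq windows of GRCm38.p6 with 250 bases before and 50 after the annotated start, printed 5′ to 3′ in the direction of transcription. Capitals mark matches, on either strand, to the STAT motif TTCNNNGAA, the C/EBP-ATF response element TGATGNAA or the ATF/CREB core TGACG.
Mfge8 (chr7:79149011-79149310, strand -): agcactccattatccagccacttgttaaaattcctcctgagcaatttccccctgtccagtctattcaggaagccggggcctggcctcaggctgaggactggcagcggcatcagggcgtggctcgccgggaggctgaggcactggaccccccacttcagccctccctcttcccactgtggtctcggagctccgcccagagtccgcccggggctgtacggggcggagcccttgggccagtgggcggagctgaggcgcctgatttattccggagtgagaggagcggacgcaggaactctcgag
Pla2g7 (chr17:43568201-43568500, strand +): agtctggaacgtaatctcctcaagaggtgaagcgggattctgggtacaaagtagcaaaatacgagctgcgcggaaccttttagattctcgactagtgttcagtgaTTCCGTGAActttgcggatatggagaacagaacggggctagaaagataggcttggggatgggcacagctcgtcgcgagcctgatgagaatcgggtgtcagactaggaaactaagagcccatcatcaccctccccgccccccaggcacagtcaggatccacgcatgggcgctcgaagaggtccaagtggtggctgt
Ednrb (chr14:103843652-103843951, strand -): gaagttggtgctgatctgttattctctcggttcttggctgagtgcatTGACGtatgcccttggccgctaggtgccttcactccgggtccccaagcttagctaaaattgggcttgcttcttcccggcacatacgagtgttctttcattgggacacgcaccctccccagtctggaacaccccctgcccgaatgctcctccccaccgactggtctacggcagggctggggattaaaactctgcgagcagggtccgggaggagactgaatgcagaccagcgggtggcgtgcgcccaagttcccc
Gfap (chr11:102897151-102897450, strand -): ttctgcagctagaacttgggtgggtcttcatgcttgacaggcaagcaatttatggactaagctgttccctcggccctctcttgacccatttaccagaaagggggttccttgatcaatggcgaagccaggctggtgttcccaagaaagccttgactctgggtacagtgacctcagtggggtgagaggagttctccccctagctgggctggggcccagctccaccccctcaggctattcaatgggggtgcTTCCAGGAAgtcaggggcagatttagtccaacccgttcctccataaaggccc

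Gfap is a textbook target of the STAT factors that drive astrocyte differentiation. Its window held TTCCAGGAA at bases 249 to 257, across the annotated start, and whether STAT factors use this match was not tested. Pla2g7 held TTCCGTGAA at bases 106 to 114, Ednrb held TGACG at bases 48 to 52, and Mfge8 held no match. Of the 26 genes of the set with a promoter in the table, 5 held the STAT motif (19.2%, against 9.55% of 27025 genes), namely Acsbg1, Aldoc, Gfap, Pla2g7 and Slc1a3. The C/EBP-ATF element was held by Apoe alone (3.85%, against 4.51% of all genes) and the ATF/CREB core by Dio2, Ednrb, Gja1, Id3 and Slc1a3 (19.2%, against 23.045%). These are matches of letters in a short window, not sites of binding.

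The same comparison under arsenite uses other arrays, 2 ATF4-deficient and 4 wildtype, although all arrays share an estimate of spread. Slc38a3 was again lower in ATF4-deficient cultures, by 2.34-fold, and Sox9, a transcription factor that starts the astrocyte programme, was 1.73-fold lower. These 2 of 31 genes passed, 0 were higher and 29 did not pass, where 0.271% of all genes were called lower and 0.0721% higher. The median difference was -0.56 log2 over the 31 genes and 0.02 over all genes, and 26 of 31 estimates were below 0, against 45.7% of all genes. Those 26 genes were below 0 under vehicle too (83.9%), against 27.5% of all genes with both estimates below 0. Without wildtype arsenite replicates 2 and 3 the median under arsenite was -0.75, against 0.01 over all genes, and 30 of the 31 estimates were below 0.

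Slc38a3 read 7.77 and 7.31 in ATF4-deficient arsenite arrays, against 8.98, 8.49, 8.53 and 9.05 in wildtype arsenite arrays (-1.22 log2, SE 0.19, limma adjusted p = 0.0224). Sox9 read 7.62 and 7.40 in ATF4-deficient arsenite arrays, against 8.36, 8.29, 8.13 and 8.41 in wildtype arsenite arrays (-0.79 log2, SE 0.13, limma adjusted p = 0.0372). Neither gene overlapped between the genotypes under arsenite. Hes5 followed with 7.37 and 7.13 in ATF4-deficient and 7.75 to 8.06 in wildtype arsenite arrays and did not pass (-0.66 log2, SE 0.12, limma adjusted p = 0.0572). It passed with dim genes left out and with a robust trend in the variance (limma adjusted p = 0.0346 and 0.0439).

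Larger estimates with wider errors did not pass either. Slc1a3 was at -1.48 log2 (SE 0.35, limma adjusted p = 0.13), Mfge8 at -1.40 (SE 0.33, adjusted p = 0.126) and Pla2g7 at -1.12 (SE 0.25, adjusted p = 0.107). Mfge8 read 8.37 and 7.93 in ATF4-deficient arsenite arrays, against 9.75, 9.22, 9.13 and 10.10 in wildtype arsenite arrays. Pla2g7 read 6.41 and 5.85 in ATF4-deficient arsenite arrays, against 7.56, 6.86, 6.93 and 7.63 in wildtype arsenite arrays. Sparcl1 (-0.79), Ednrb (-0.83) and Gfap (-0.29) had estimates nearer 0 than under vehicle, and that difference did not pass for any of them in the interaction test (limma adjusted p = 0.828, 0.878 and 0.828). The estimates of Clu (0.04), Slc7a10 (0.08), Slc1a2 (0.11), Gjb6 and Dio2 (0.00 each) lay at or above 0, with 95% intervals that reached no lower than -0.27.

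Under arsenite 19 of the 31 genes had both ATF4-deficient arrays below all 4 wildtype arrays, against 7.95% of all genes, and 0 lay wholly above, against 10.6%. The Slc38a3 call was lost without wildtype arsenite replicate 1 or 4 and without either ATF4-deficient arsenite array (adjusted p = 0.0564 to 0.236), and the Sox9 call was kept only without either ATF4-deficient vehicle array. Neither call passed with array weights (limma adjusted p = 0.0568 and 0.101), and with only the 6 arsenite arrays Sox9 alone passed. Without both wildtype arsenite replicates 2 and 3, Slc38a3 alone passed (limma adjusted p = 0.0401, against 0.111 for Sox9).

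**Figure D3:**
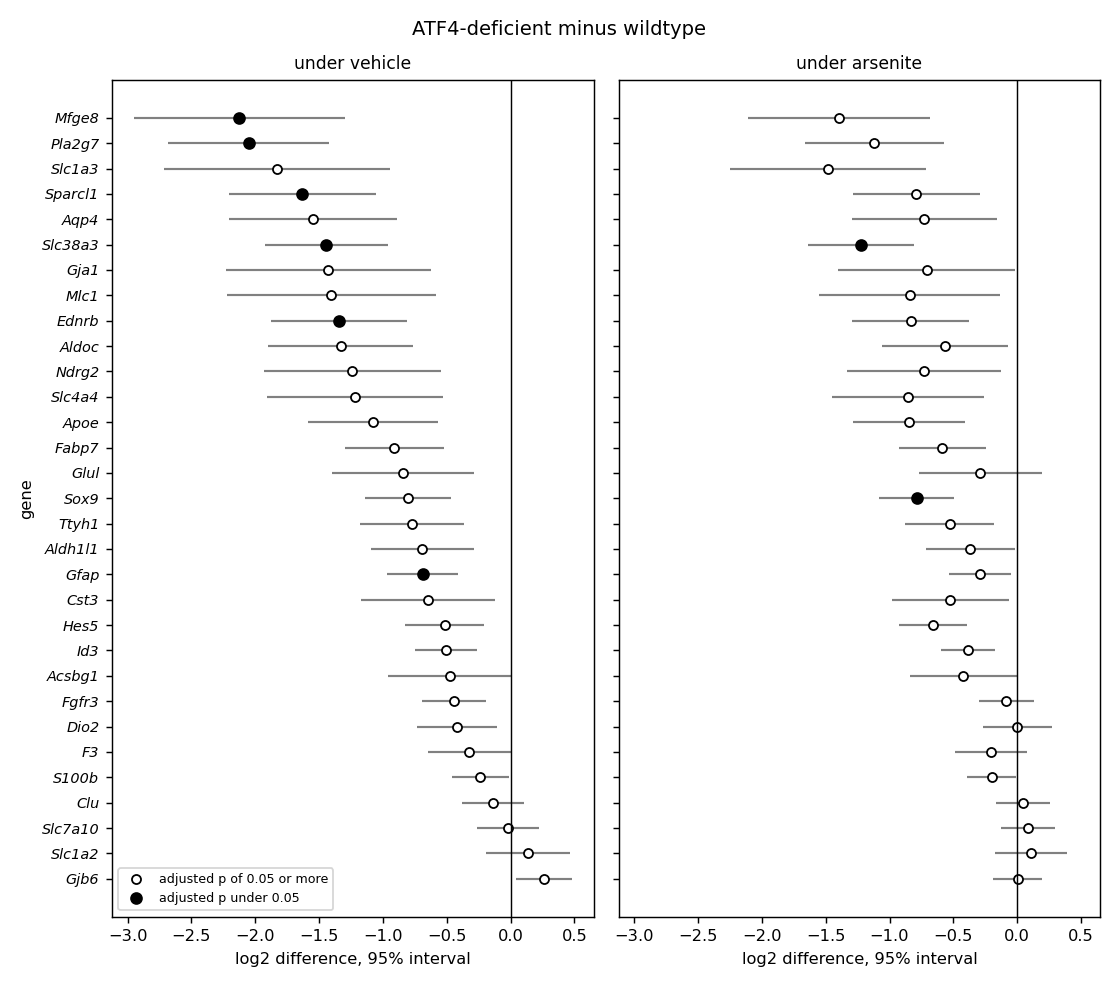
Log2 difference, ATF4-deficient minus wildtype, for each of the 31 genes (rows, ordered by the difference under vehicle), with 95% intervals from limma. The left panel is under vehicle and the right under arsenite, filled points mark an adjusted p under 0.05, and most estimates lie left of 0 in both panels.

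Across both treatments, 14 genes had all 4 ATF4-deficient arrays below all 6 wildtype arrays, against 1.49% of all genes, and 0 had them wholly above, against 1.23%. They were the transporter genes Slc1a3, Slc38a3 and Slc4a4, the gap junction gene Gja1, the secreted protein genes Mfge8, Pla2g7, Sparcl1 and Apoe, the receptor gene Ednrb, the regulators Sox9, Id3 and Hes5, and Gfap and Fabp7. Slc38a3, for example, reached at most 7.77 in ATF4-deficient arrays and was at least 8.49 in wildtype arrays. Slc1a2, Slc7a10, Clu, Gjb6, Glul, Dio2, Fgfr3 and F3 were among the 17 genes that overlapped.

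Arsenite against vehicle in wildtype cultures asks what the metalloid does where ATF4 is present. No gene of the 31 passed: 0 rose and 0 fell in limma, where 0.23% of all genes were called higher and 0.252% lower (51 and 56 genes, or 26 and 50 with array medians made equal). All 31 estimates were below 0, against 55.1% of all genes, with a median of -0.38 log2, against -0.02 over all genes. Without wildtype arsenite replicates 2 and 3 the median was -0.21, and 26 of the 31 estimates were below 0. At an unadjusted p under 0.05, 13 of the 31 were lower, against 10.9% of all genes in either direction. This comparison has the same 2 wildtype vehicle arrays as the genotype comparison under vehicle, so the 2 sets of differences are not independent of each other.

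Gfap came nearest to the threshold. It read 7.32, 7.27, 7.30 and 7.40 in wildtype arsenite arrays, against 7.83 and 7.95 in wildtype vehicle arrays (-0.57 log2, SE 0.11, limma adjusted p = 0.0554), with no overlap. It passed with dim genes left out, with array weights, with a robust trend in the variance and without either ATF4-deficient arsenite array (adjusted p = 0.0279 to 0.0401). Aqp4 had the largest estimate, at 7.97, 7.38, 7.49 and 8.39 in wildtype arsenite arrays, against 8.59 and 8.92 in wildtype vehicle arrays (-0.95 log2, SE 0.26, limma adjusted p = 0.171). Mfge8 (-0.80) and Aldoc (-0.67) came next. For 16 of the 31 genes all 4 arsenite arrays lay below both vehicle arrays, against 12.7% of all genes, and for 0 above them, against 7.86%.

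Other members of the set were close to 0. The 95% interval was -0.22 to 0.20 for Clu, -0.23 to 0.15 for Gjb6, -0.33 to 0.21 for Hes5 and -0.29 to 0.13 for Slc7a10. Sparcl1 read 11.74, 11.20, 11.03 and 11.82 in wildtype arsenite arrays, against 11.60 and 11.84 in wildtype vehicle arrays, so that these groups overlapped. Fabp7, at 12.10 to 12.42 in wildtype arsenite and 12.47 and 12.51 in wildtype vehicle arrays, did not overlap and did not pass (-0.28 log2, limma adjusted p = 0.556).

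In ATF4-deficient cultures arsenite against vehicle likewise gave 0 calls in limma among the 31 genes, where 0.631% of all genes were called higher and 0.523% lower. The median was -0.07 log2 over the 31 genes and -0.01 over all genes, and 18 estimates were below 0 and 13 above. At an unadjusted p under 0.05, 2 genes were lower, Sox9 and Gjb6, against 12.0% of all genes in either direction. The median was -0.29 without ATF4-deficient arsenite replicate 1, -0.24 without ATF4-deficient vehicle replicate 2, 0.10 without ATF4-deficient arsenite replicate 2 and 0.09 without ATF4-deficient vehicle replicate 1.

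Sox9 had the largest estimate below 0, at 7.62 and 7.40 in ATF4-deficient arsenite arrays, against 8.12 and 7.71 in ATF4-deficient vehicle arrays (-0.41 log2, SE 0.15, limma adjusted p = 0.306). Sparcl1 had the largest above 0, at 10.89 and 10.42 in ATF4-deficient arsenite arrays, against 10.29 and 9.88 in ATF4-deficient vehicle arrays (0.57 log2, SE 0.26, limma adjusted p = 0.42). Pla2g7 was at 0.44 with overlapping groups, all under the dim reference. Arsenite and vehicle arrays did not overlap for 2 genes that were higher (Sparcl1 and Clu, against 18.1% of all genes) and 5 that were lower (Slc1a2, Gjb6, Ttyh1, S100b and Sox9, against 20.7%).

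**Figure D4:**
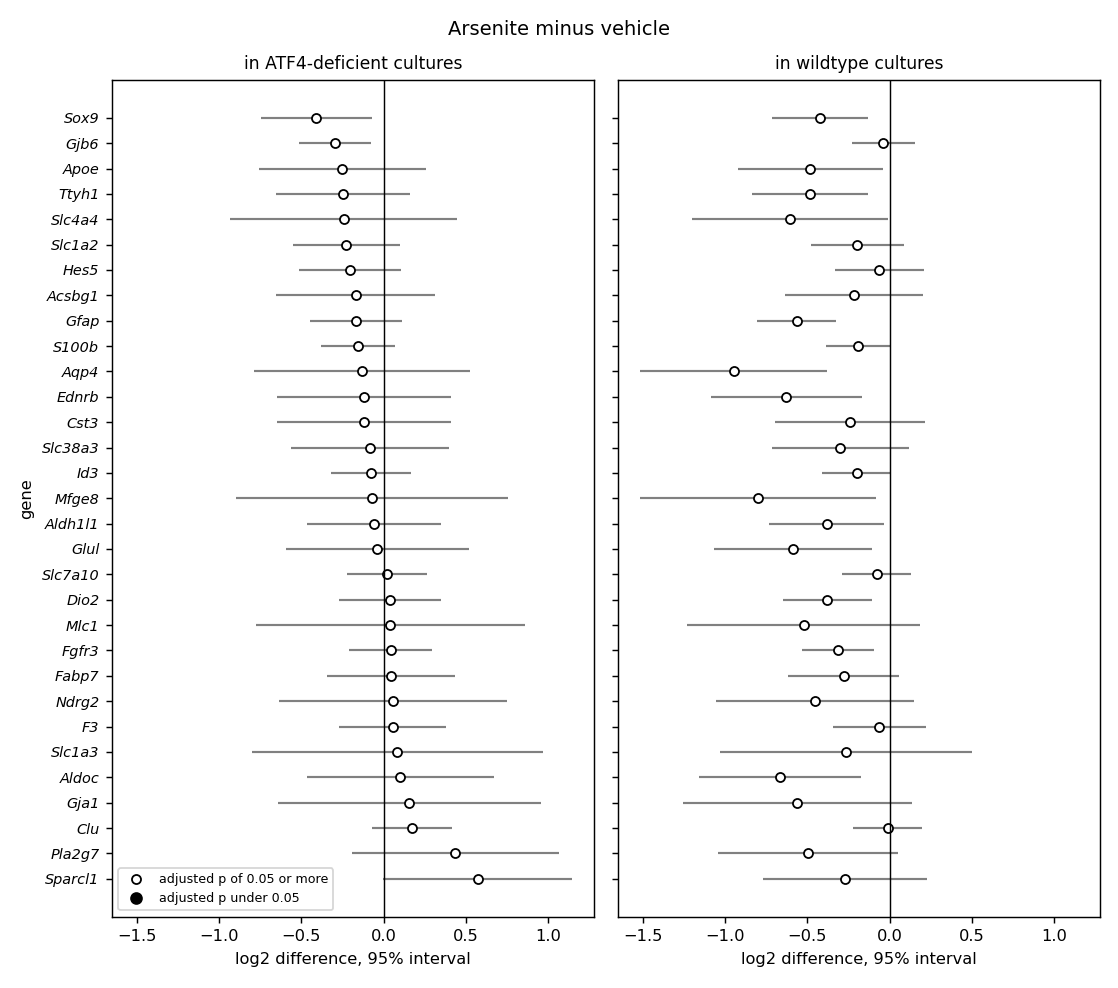
Log2 difference, arsenite minus vehicle, for each of the 31 genes (rows, ordered by the difference in ATF4-deficient cultures), with 95% intervals from limma, in ATF4-deficient (left) and wildtype (right) cultures. No gene passed an adjusted p of 0.05 in either panel, and all 31 wildtype estimates lie left of 0.

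The interaction, the ATF4-deficient response to arsenite minus the wildtype response, tests whether the genotype difference depends on treatment. It gave 0 calls in limma among the 31 genes and 0.0% over all 22180 genes (smallest adjusted p 0.34). Of the 31 estimates 28 were above 0 and 3 below, where 45.5% of all genes were below, and the median was 0.32 log2, against 0.02 over all genes. Without wildtype arsenite replicates 2 and 3 it was 0.12, with 21 estimates above 0. At an unadjusted p under 0.05, 6 of the 31 were above 0, namely Pla2g7 (0.93 log2, SE 0.38), Sparcl1 (0.84, SE 0.35), Aldoc (0.77), Dio2 (0.42), Gfap (0.40) and Fgfr3 (0.36), and 5.996% of all genes passed that p in either direction. The adjusted p of the 31 genes was at least 0.827. For Slc38a3 the estimate was 0.22 (95% interval -0.42 to 0.85) and for Sox9 0.02 (-0.43 to 0.46), intervals that leave room for sizeable differences in either direction.

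A further list of astrocyte-enriched genes that does not overlap the set was read beside it. It came from the same 10 arrays and was also chosen with earlier results known, so it is not independent evidence. Of 38 measured, 2 were called lower and 0 higher in ATF4-deficient vehicle cultures in limma, against 0.252% and 0.18% of all genes. Below 0 lay 31 estimates, against 48.9% of all genes, with a median of -0.34 log2, against 0.00 over all genes. At an unadjusted p under 0.05 there were 19, against 10.9% of all genes. Bcan, a proteoglycan of the brain matrix, read 6.77 and 6.26 in ATF4-deficient vehicle arrays, against a mean of 8.26 in the 2 wildtype vehicle arrays (-1.74 log2, SE 0.31, limma adjusted p = 0.0402). Ptprz1, a receptor phosphatase of glia and their precursors, read 9.83 and 9.76 in ATF4-deficient vehicle arrays, against 10.63 and 10.91 in wildtype vehicle arrays (-0.98 log2, SE 0.14, limma adjusted p = 0.0225). Each call was lost without any 1 of the 4 vehicle arrays, and that of Bcan also without wildtype arsenite replicate 1 or 2.

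Under arsenite 0 of the 38 passed between genotypes, with 10 at an unadjusted p under 0.05, against 12.1% of all genes, and a median of -0.19, against 0.02 over all genes. Rorb, which excitatory neurons of the upper cortical layers also express, was lower with arsenite in both genotypes. It read 8.67 and 8.37 in ATF4-deficient arsenite arrays, against 9.53 and 9.56 in ATF4-deficient vehicle arrays (-1.03 log2, SE 0.14, limma adjusted p = 0.00703), and 8.58, 8.45, 8.32 and 8.68 in wildtype arsenite arrays, against 9.36 and 9.25 in wildtype vehicle arrays (-0.79 log2, SE 0.12, adjusted p = 0.0254). The first call was lost without either ATF4-deficient vehicle array or ATF4-deficient arsenite replicate 2, and the second without either wildtype vehicle array or wildtype arsenite replicate 2 or 3.

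Genes that astrocytes raise on injury were read next. Of 32 reactive astrocyte genes, 0 passed in limma in any comparison, in either direction. At an unadjusted p under 0.05 there were 7 between genotypes under vehicle (10.9% of all genes) and 6 under arsenite (12.1%). For arsenite against vehicle there were 0 in ATF4-deficient (12.0%) and 3 in wildtype cultures (10.9%). Their median difference between genotypes was 0.05 log2 under vehicle, where 14 of 32 estimates were below 0, and 0.01 under arsenite. Of the 32, 19 lay under the dim reference in ATF4-deficient arsenite, 18 in ATF4-deficient vehicle, 17 in wildtype arsenite and 16 in wildtype vehicle cultures.

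Of 33 genes of gliogenic signalling, which holds the cytokine, BMP and Notch pathways and the transcription factors that start gliogenesis, 1 passed. Olig2, a transcription factor of the oligodendrocyte and astrocyte lineages, read 7.67 and 7.13 in ATF4-deficient arsenite arrays, against 8.4809, 8.5128, 8.2019 and 8.5142 in wildtype arsenite arrays (-1.03 log2, SE 0.18, limma adjusted p = 0.0473). The call was kept only without either ATF4-deficient vehicle array. Under vehicle 25 of the 33 estimates were below 0, against 48.9% of all genes, with a median of -0.17 and 0 called in limma. At an unadjusted p under 0.05 there were 9, against 10.9% of all genes, among them Olig2 (-0.84), Sox2 (-0.63) and Notch2 (-0.60).

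Markers of other cells had medians nearer 0, although single genes of the oligodendrocyte lineage did not. In ATF4-deficient minus wildtype cultures under vehicle the median was -0.07 log2 for 16 neuron markers, 0.05 for 15 oligodendrocyte lineage markers, 0.13 for 15 microglia and macrophage markers, 0.01 for 18 vascular, mural and fibroblast markers, -0.08 for 15 progenitor and cycling cell markers and 0.03 for 10 ependymal and choroid plexus markers. In the same order, 9, 6, 3, 9, 11 and 4 of these estimates were below 0, against 48.9% of all genes. Under arsenite the medians in that order were 0.02, -0.02, 0.05, -0.02, -0.15 and 0.14, with 0 genes called in limma. Below 0 under arsenite lay 7, 8, 6, 9, 14 and 2 estimates, against 45.7% of all genes. The progenitor and cycling cell markers were thus below 0 for 14 of 15 genes under arsenite. Many of the markers on these lists lay under the dim reference, where a change can be masked. In ATF4-deficient and wildtype vehicle cultures these were 4 and 4 oligodendrocyte lineage, 6 and 6 microglia and 8 and 10 vascular markers. Of the progenitor markers they were 4 and 4, and of the ependymal markers 5 and 4. Rgs5, a pericyte marker, alone of the markers on these lists passed in the vehicle comparison (1.29 log2, limma adjusted p = 0.0344). It read 7.32 and 7.85 in ATF4-deficient against 6.5021 and 6.0839 in wildtype vehicle arrays, both wildtype values under the dim reference. Olig1, a transcription factor of oligodendrocyte precursors, read 7.64 and 7.29 in ATF4-deficient against 8.37 and 8.93 in wildtype vehicle arrays, without overlap, and did not pass (-1.19 log2, limma adjusted p = 0.088). Under arsenite Olig1 was at -0.75 (limma adjusted p = 0.239). In the vehicle comparison Tubb3 was at -0.44 and Pdgfra, of oligodendrocyte precursors, at -0.76 (limma adjusted p = 0.114 and 0.0715). With arsenite Rgs5 was lower in ATF4-deficient (-1.03 log2, limma adjusted p = 0.045) and Pdgfra in wildtype cultures (-0.76, adjusted p = 0.0464). Mean centred levels of the neuron markers lay between -0.07 and 0.05 in ATF4-deficient arsenite, -0.02 and 0.03 in ATF4-deficient vehicle, -0.13 and 0.04 in wildtype arsenite and 0.02 and 0.10 in wildtype vehicle arrays. The part of the cell make-up of the cultures in the differences of the astrocyte-expressed genes was not tested.

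**Figure D5:**
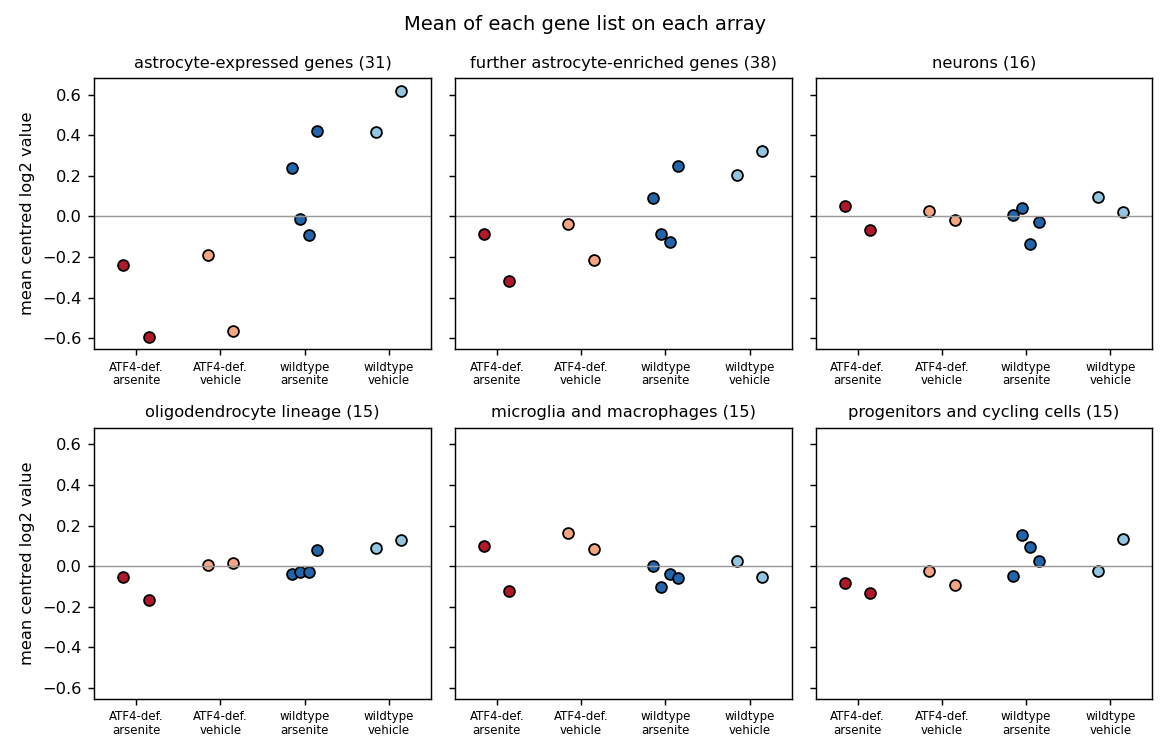
Mean over each gene list of log2 values centred per gene on the 10 arrays (points are arrays, by group), for the 31 astrocyte-expressed genes and 5 other lists, with the number of genes measured in brackets. The astrocyte lists spread from -0.59 to 0.62 and from -0.32 to 0.32, whereas the neuron markers stay between -0.13 and 0.10. The oligodendrocyte lineage markers lie between -0.16 and 0.13, the microglia and macrophage markers between -0.12 and 0.17. The progenitor and cycling cell markers lie between -0.13 and 0.15.

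The genes outside the set whose pattern over the 10 arrays was most like its mean were ranked among 13498 genes above the dim reference, by Pearson's r as a description, since they were picked for it. The first 12 were Nacc2 (r = 0.991), Emp2 (0.989), Slc6a11 (0.984), Plpp3 (0.981), Tpcn1 (0.981), S1pr1 (0.979), Gldc (0.978), Rph3a (0.976), Trpc5 (0.9753), Bcan (0.970), Abca1 (0.969) and Cmtm5 (0.968). The genotypes form separate clusters on the mean and raise these values. Over the 6 wildtype arrays alone r was 0.922 to 0.982, but these arrays were part of the ranking and hold both treatments. Spearman's rho over the 10 arrays was 0.903 to 1.0. Slc6a11, a GABA transporter of astrocytes, Bcan and Cmtm5 were on the further astrocyte list and the other 9 were on no list. Slc6a11 averaged 9.09 in ATF4-deficient arsenite, 9.07 in ATF4-deficient vehicle, 9.87 in wildtype arsenite and 10.51 in wildtype vehicle arrays. Rph3a, a synaptic vesicle protein of neurons, averaged 9.08 in ATF4-deficient arsenite, 9.17 in ATF4-deficient vehicle, 9.58 in wildtype arsenite and 9.98 in wildtype vehicle arrays.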

How the data were processed

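RNA of 10 cultures was measured by Affymetrix array. Values are log2, as the authors deposited them, after RMA in Partek Genomics Suite 6.6, per the submitters' processing notes. Such normalization hides shifts common to most genes. Scanner files were not used here. Of 41345 probe sets, 23521 had 1 symbol in the platform annotation, 1814 several and 16010 no entry, and 23328 matched a GRCm38.p6 gene by Entrez identifier. The brightest probe set stood for each of 22180 genes. The number of arrays limits precision, and the labels name no batch.

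Groups came from the titles. A limma 3.58.1 model (R 4.3.3) with a mean per group and 6 residual degrees of freedom was fitted to all genes and arrays, with Benjamini-Hochberg adjustment over all genes and a threshold of 0.05. It was tested on simulated data with noise independent between genes, unlike the joint shift of the 31 genes. P-values measure the spread between these samples, which the titles call biological replicates. Members and lists were chosen with earlier results of these data known. All 31 members could be named, with full values for those past the threshold, the largest differences among the others, the called genes of each list, and the 12 genes most like the members' mean. Alternatives were a filter on dim genes, averaged probe sets, equal array medians, array weights, a robust variance trend, only the arrays compared, the replicate number as a block, leaving out each array and, added after seeing the data, leaving out wildtype arsenite replicates 2 and 3. Same-numbered arrays did not deviate together throughout, so the numbers were not taken to pair samples.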

Additional observations from a re-analysis of the deposited data

Results flagged for a closer look

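In the 4 wildtype arsenite arrays, the deiodinase gene Dio2 read 6.56 in replicate 4, apart from 6.26, 6.26 and 6.28 in the other 3, and all 4 values are under the dim reference of 6.63. The gap was 0.934 of the group's range, above Dixon's 95% critical value for 4 samples. It was the 1 group flagged of 31 tested, where chance flags about 1 in 20.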

How the results depend on the processing

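Direction held for all 8 calls under all 18 alternatives, and 84 of their 144 values stayed past the threshold. For each call, many of these alternatives alter only the spread or the number of genes. The estimate, and with it the direction, could not change there. The 6 calls between genotypes under vehicle became 11 with dim genes left out (fewer genes tested), 12 with array weights, 10 with a robust variance trend, 10 with the replicate block and 0 with only the arrays compared. Leaving out 1 array gave 0 to 6, and leaving out wildtype arsenite replicates 2 and 3 together, an alternative chosen after seeing the data, gave 5. The 2 calls under arsenite became 0 with array weights and 0 with the replicate block. They became 1 with only the arrays compared and 1 without those 2 arrays. Hes5 passed beside both with dim genes left out and with a robust variance trend (limma adjusted p = 0.0346 and 0.0439). Each of the 2 calls was lost in some fits without 1 array. For arsenite in wildtype cultures the count of 0 became 1 (Gfap) with dim genes left out, array weights or a robust trend, and 0 to 1 when 1 array was left out. In ATF4-deficient cultures and for the interaction it was 0 throughout. Over all genes, those called lower in ATF4-deficient vehicle cultures went from 56 to 133 with dim genes left out and 142 with array weights. They went to 87 with a robust variance trend, 109 with the replicate block and 0 with only the arrays compared. Under arsenite they went from 60 to 31 with array weights and 4 with the replicate block. They went to 30 with only the arrays compared and 9 without wildtype arsenite replicates 2 and 3. Beyond fewer genes or samples, the cause was not tested.

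Medians moved by less than the 0.23 log2 spread between replicates under every alternative run. Leaving out 1 array gave -1.01 to -0.60 between genotypes under vehicle, -0.77 to -0.36 under arsenite and -0.46 to -0.26 for arsenite in wildtype cultures. Of 2590 values of results not called, 31 passed under an alternative and 97 changed sign. Deviations of same-numbered arrays correlated at -0.06 to 0.40, so the replicate block is an alternative only. Array values give no detection calls, and the 5 genes under the dim reference are the least certain.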
